A study of Mus musculus with 18 samples.

Results

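Lungs of A/J mice were compared with lungs of C57BL/6 mice that had inhaled only PBS, which gives the gene expression difference between these strains before any allergen reached the airways. The comparison uses 6 of the 18 arrays of the series, chosen by the strain and challenge in their labels: 3 of A/J mice and 3 of C57BL/6 mice, all of whole lung. All mice were male and 16 weeks old. They had been made allergic to ovalbumin, a protein of egg white, with an injection of 100 µg in alum into the peritoneum once a week for 3 weeks. From 7 days after the last injection they inhaled a PBS aerosol for 30 min on each of 3 days. The PBS mice of both strains were thus sensitized, and unsensitized lungs were not analysed here. The other 12 arrays, 3 per strain and treatment, come from mice challenged with 1% ovalbumin, without or with 100 µg of resiquimod, an agonist of Toll-like receptor 7, injected intraperitoneally from the day before the first challenge. Mice lived in a conventional facility, alone or with cage mates, and the labels name no substrain of C57BL/6. The samples of a group are labelled as biological replicates, and p-values measure the spread between these samples.

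A/J and C57BL/6 are inbred strains, so mice of a strain are genetically almost identical, and the strains differ at a very large number of sequence variants. A/J mice are known for airways that contract strongly to inhaled constrictors and C57BL/6 mice for a weak response, which made the pair a standard model for inherited susceptibility to asthma. They also carry different haplotypes of the major histocompatibility complex (MHC), whose class I and class II molecules present peptides to T cells. On this kind of array a transcript is read by a probe set, a group of short probes complementary to known mouse sequence, and a gene may have several probe sets at different places. A variant under a probe can change how well RNA of 1 strain binds, whatever its amount, so probe sets of the same gene were set against each other.

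The Affymetrix arrays hold 45037 probe sets besides controls. Of these, 34945 name a single gene, which gives 18193 genes, each represented by its brightest probe set (highest mean over the 18 arrays). Values are on the log2 scale, on which 1 unit is a factor of 2. The 25th percentile of all values was 3.33, and values at or below it are called weak here. Differences are A/J minus C57BL/6, with the standard error (SE) of limma's fit and n = 3 arrays per strain, and a difference was called at an adjusted p under 0.05. In whole lung, fewer cells of a type and less RNA per cell cannot be told apart.

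PBS arrays of the same strain correlated at r = 0.991 to 0.997 over probe sets, and arrays of different strains at 0.982 to 0.987. The lungs carried their defining transcripts in both strains: surfactant protein C (Sftpc) averaged 13.80 in A/J and 13.83 in C57BL/6 lungs, and the club cell secretory protein Scgb1a1 averaged 13.76 and 13.77 in the same order. One A/J array (replicate 1) and 2 C57BL/6 arrays (replicates 1 and 3) also held transcripts of squamous epithelium, a tissue of the upper airway and oesophagus: keratin 13 (Krt13) read 11.14, 3.21 and 3.43 in the A/J lungs and 11.37, 4.17 and 11.93 in the C57BL/6 lungs. Of the squamous list 0 of 25 genes were called in the limma fit (2 at an unadjusted p under 0.05; 1 called in the arrays without these transcripts), with a mean level of 4.01 to 6.51 in A/J and 4.33 to 7.16 in C57BL/6 lungs. List counts without the 8 arrays of the series that hold them are given where they differ from the main ones. Skeletal muscle transcripts varied as widely, at list means of 5.10 to 8.22 in A/J and 5.85 to 8.70 in C57BL/6 lungs.

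Between the strains 3845 of 45037 probe sets were called, 8.54% of those tested, with 1850 higher (4.11%) and 1995 lower (4.43%) in A/J lungs. Counted by gene, 1640 of 18193 were called (9.01%), of which 811 were higher (4.46%) and 829 lower (4.56%) in A/J. Counts within gene lists are to be read beside these shares. Most called differences were moderate, with a median size of 0.48, against 0.10 over all genes. At least 2-fold differences were seen in 91 genes higher and 115 genes lower in A/J, and at least 8-fold ones in 3 and 11 genes. The groups did not overlap in 4932 genes (27.1%), so that separation of the 6 arrays alone marked many more genes than the test. In the 10 arrays without squamous transcripts, which leave 2 A/J and 1 C57BL/6 lungs for this comparison (the single lung is taken to vary like the others), 565 genes were called, 278 higher and 287 lower, and 513 of them were among the 1640 in the same direction.

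The gene with the largest rise was Gbp2b, an interferon-inducible guanylate-binding protein of cell-autonomous defence. It read 8.48, 7.97 and 8.48 in A/J lungs and 3.60, 2.96 and 3.52 in C57BL/6 lungs, a difference of 4.95 ± 0.21 (30.9-fold; limma adjusted p = 6.02e-11). All C57BL/6 arrays lay near the weak signals. Tmem87a, a membrane protein, rose by 3.64 ± 0.14 and Pik3ap1, an adaptor that couples receptors to phosphoinositide 3-kinase, by 3.27 ± 0.18. The actin regulators Baiap2l1 and Cap1 came next. Baiap2l1 read 10.62, 10.59 and 10.63 in A/J lungs and 7.76, 7.53 and 7.84 in C57BL/6 lungs, a gap far wider than the spread within either strain. Cap1 read 10.29, 10.30 and 10.30 in A/J lungs and 7.06, 8.40 and 7.02 in C57BL/6 lungs, so the C57BL/6 lungs were uneven while the A/J lungs were level. Its other probe set rose by 3.09, against 2.80 for the brightest, and that of Baiap2l1 by 2.69, against 2.90. The other large rises included Map2, a microtubule protein best known from neurons (2.70 ± 0.12), the RNA-binding protein Rbm45 (2.66 ± 0.16), the lipid phosphatase Inpp4b (2.20 ± 0.16) and the neuronal pentraxin Nptx1 (2.27 ± 0.13). Myh7, the myosin heavy chain of slow skeletal and fetal heart muscle, rose by 2.39 ± 0.21, while Actc1, cardiac actin, fell by 1.23 ± 0.17. Over the 17 measured cardiac muscle genes 1 was higher and 1 lower, and the list mean spanned 7.46 to 8.66 in A/J and 8.35 to 8.36 in C57BL/6 lungs. The part of muscle in the samples in these differences was not tested.

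**Figure D1:**
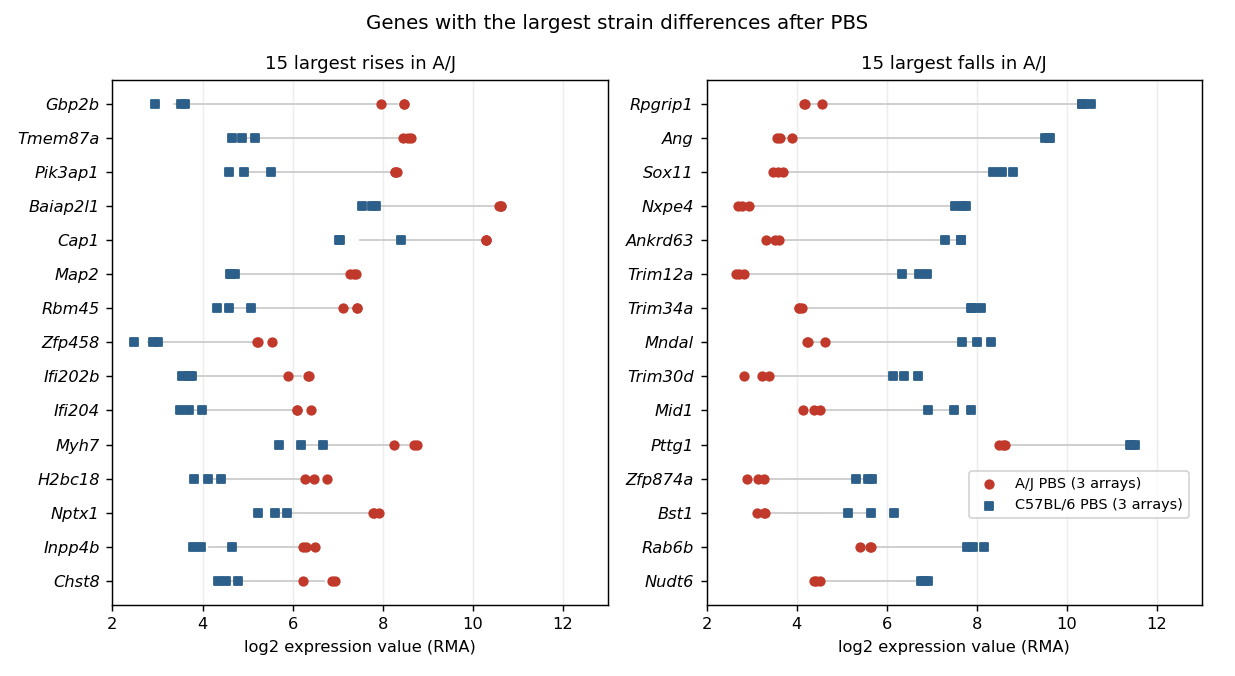
Log2 expression value of each PBS array for called genes whose groups do not overlap, 15 that rose most in A/J lungs (left) and 15 that fell most (right). Red circles are the 3 A/J lungs, blue squares the 3 C57BL/6 lungs, and grey lines join the group means. Rpgrip1 shows the widest gap, 6.10 on the log2 scale, and Cap1 has 1 C57BL/6 lung above the other 2.

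By the brightest probe set of each gene, the falls were larger than the rises at the top of the list. Counted over all probe sets, 4 were at least 32-fold higher and 3 at least 32-fold lower in A/J. Rpgrip1, a ciliary scaffold protein known from photoreceptors, read 4.20, 4.55 and 4.17 in A/J lungs and 10.34, 10.34 and 10.53 in C57BL/6 lungs (difference -6.10 ± 0.14; 68.4-fold; limma adjusted p = 3.49e-14). Its other probe sets, all 3 of them dim, differed by 0.01, 0.08 and 0.15 and were not called. Ang, the secreted ribonuclease angiogenin, read 3.90, 3.57 and 3.63 in A/J lungs and 9.52, 9.62 and 9.61 in C57BL/6 lungs, and the 2 groups lay 58.9-fold apart. Sox11, a transcription factor of development, read 3.58, 3.71 and 3.48 in A/J lungs and 8.55, 8.81 and 8.36 in C57BL/6 lungs, with no overlap. Nxpe4 fell by 4.85 ± 0.11 and Ankrd63, an ankyrin repeat protein, by 4.05 ± 0.14. Mid1, a microtubule-bound ubiquitin ligase, fell by 3.08 ± 0.64, the least precise of these, and its dim probe sets differed by 0.02 and 0.21. Mid1 was not called without the arrays with squamous transcripts (limma adjusted p = 0.208). Pttg1, which encodes the cell division protein securin, read 8.62, 8.58 and 8.49 in A/J lungs and 11.51, 11.42 and 11.41 in C57BL/6 lungs. All 3 of its probe sets fell, by 1.24 to 3.07. Bst1, an ectoenzyme of blood and stromal cells, fell by 2.42 ± 0.21 and the Golgi GTPase Rab6b by 2.39 ± 0.14.

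For most of these 30 genes the array gives no second bright reading, and dim probe sets were not counted here. Another bright probe set (mean at or above 4.79, the median of all probe sets) was missing for 19 of them, among them Rpgrip1, Gbp2b, Tmem87a and Nxpe4. This mean runs over both strains, so a probe set high in only 1 strain can count as bright, as the second of Mndal does. In 7 genes every other bright probe set was called in the same direction: Baiap2l1, Cap1, Nptx1, Ang, Sox11, Mndal and Pttg1. In the remaining 4 at least 1 was not called or was called the other way. The second probe set of Pik3ap1 differed by -0.25 and was not called, against the rise of 3.27 on the brightest. Nudt6, a nucleotide hydrolase, fell by 2.39 on the brightest probe set and rose by 0.49 on the other. Rab6b fell by 1.60 on a second probe set and differed by -0.24 on the third, and Trim34a is described with its neighbours.

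Several of these genes lie next to each other. Among 16468 genes placed in order on the RefSeq map, 406 of the 1558 called had a called neighbour on that map (26.1%), against 17.6% of all genes, and there were 3 runs of at least 4 called genes in a row. The longest held 6 genes of the tripartite motif (Trim) family, antiviral ubiquitin ligases of which many are interferon-inducible. Trim34a read 4.05, 4.13 and 4.06 in A/J lungs and 8.09, 7.86 and 7.89 in C57BL/6 lungs. Trim12a read 2.66, 2.83 and 2.73 in A/J lungs and 6.71, 6.35 and 6.88 in C57BL/6 lungs. Trim30d read 3.39, 3.23 and 2.84 in A/J lungs and 6.15, 6.38 and 6.70 in C57BL/6 lungs. In these 3 genes A/J signals were at or near the weak range in every array. Trim5 fell by 0.71 ± 0.10 and Trim30a by 0.46 ± 0.09, while Trim12c rose by 0.55 ± 0.10. A second bright Trim30a probe set differed by -0.14 and was not called, less than the brightest in the pair test (limma adjusted p = 0.0173). The Trim30a call was also lost without the arrays with squamous transcripts (limma adjusted p = 0.339). The members of this cluster are close copies of each other, so probes may take up RNA of a neighbour, and the second Trim34a probe set went the other way, with a rise of 1.23. Over all 58 measured genes named Trim followed by a number, 7 were higher and 8 lower in A/J, against 4.46% and 4.56% of all genes.

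The next run held 5 genes of the Ifi200 family, interferon-inducible nuclear proteins that bind DNA and include sensors of foreign DNA. Its members moved in opposite directions. Mndal read 4.25, 4.62 and 4.22 in A/J lungs and 7.67, 8.32 and 8.0 in C57BL/6 lungs. Its other probe set read 2.29, 2.31 and 2.56 in A/J lungs and 8.36, 8.33 and 8.32 in C57BL/6 lungs, so both showed high C57BL/6 and low A/J signals. Ifi202b was the reverse, with 6.33, 5.90 and 6.36 in A/J lungs and 3.78, 3.55 and 3.71 in C57BL/6 lungs. Ifi204 also rose, by 2.48 ± 0.13. Ifi203 fell by 0.78 ± 0.13, and Ifi207 by 0.47 ± 0.11 at weak signals in both strains. The Ifi207 call was lost without A/J replicate 1 (limma adjusted p = 0.0638), C57BL/6 replicate 1 (0.0814) or the arrays with squamous transcripts (0.717). Of the 8 measured genes of the Ifi200 list, 2 were higher and 4 lower (2 and 3 without the arrays with squamous transcripts). Over all genes 4.46% were called higher and 4.56% lower. Ifi213, an Ifi200 gene outside the run, fell by 2.18 ± 0.15. The third run held Crtam (0.44 ± 0.13), Ubash3b (-1.0 ± 0.15), Sorl1 (-0.31 ± 0.07) and Sc5d (-0.88 ± 0.08), genes of unrelated function. Crtam (limma adjusted p = 0.143) and Sorl1 (0.298) were not called without the arrays with squamous transcripts. The Crtam call was also lost without A/J replicates 2 or 3 or C57BL/6 replicates 1 or 2 (0.0933 to 0.163), and that of Sorl1 without A/J replicate 3 (0.0519) or C57BL/6 replicate 1 (0.0578).

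**Figure D2:**
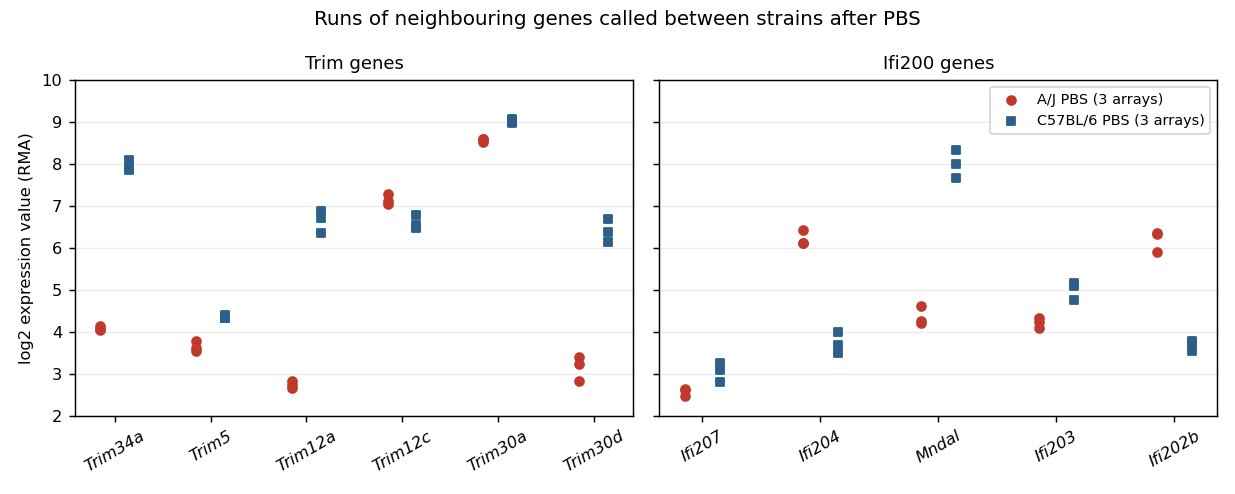
Log2 expression values of the 6 Trim and 5 Ifi200 genes in the 2 longest runs of neighbouring called genes, in map order from left to right. Red circles are the 3 A/J lungs and blue squares the 3 C57BL/6 lungs after PBS. Trim34a, Trim12a, Trim30d and Mndal are far lower in A/J, while Ifi204 and Ifi202b are far higher.

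The promoters of these neighbours are shown because genes of both runs, and Gbp2b, belong to interferon-inducible families. Windows of 300 bases, from 250 before to 50 after the RefSeq transcript start on GRCm38.p6, a C57BL/6J genome, were searched on both strands for GAAANNGAAA, a core of the interferon-stimulated response element. The motif was found in 1131 of 32851 promoters (3.44%), or counted by gene in 1079 of 27025 (3.99%). By gene, it was found for all 6 genes of the Trim run, for Gbp2b, and for 3 of the 4 Ifi200 genes of the run that have an entry (Ifi207, Mndal and Ifi203). Capitals mark the motif, which reads TTTCNNTTTC where it lies on the other strand, and the sequences run 5′ to 3′ along the gene.
Trim34a, chr7:104244207-104244506 (plus strand): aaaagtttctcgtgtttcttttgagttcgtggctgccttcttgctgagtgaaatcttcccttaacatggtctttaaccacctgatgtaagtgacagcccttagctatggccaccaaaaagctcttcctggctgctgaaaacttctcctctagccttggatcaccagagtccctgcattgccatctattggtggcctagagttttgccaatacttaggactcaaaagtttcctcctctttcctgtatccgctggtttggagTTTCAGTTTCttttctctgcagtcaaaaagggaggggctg
Trim12a, chr7:104315446-104315745 (minus strand): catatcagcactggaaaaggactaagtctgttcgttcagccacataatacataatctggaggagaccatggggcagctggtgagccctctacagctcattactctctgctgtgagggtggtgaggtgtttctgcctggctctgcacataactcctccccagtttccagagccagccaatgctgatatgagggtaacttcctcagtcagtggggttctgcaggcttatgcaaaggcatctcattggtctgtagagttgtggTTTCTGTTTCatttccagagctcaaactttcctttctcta
Trim30d, chr7:104507800-104508099 (minus strand): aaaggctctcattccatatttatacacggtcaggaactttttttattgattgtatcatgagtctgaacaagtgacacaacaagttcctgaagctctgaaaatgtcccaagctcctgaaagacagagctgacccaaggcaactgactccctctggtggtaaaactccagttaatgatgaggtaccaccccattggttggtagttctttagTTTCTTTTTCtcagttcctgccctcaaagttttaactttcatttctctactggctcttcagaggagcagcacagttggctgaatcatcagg
Mndal, chr1:173880138-173880437 (minus strand): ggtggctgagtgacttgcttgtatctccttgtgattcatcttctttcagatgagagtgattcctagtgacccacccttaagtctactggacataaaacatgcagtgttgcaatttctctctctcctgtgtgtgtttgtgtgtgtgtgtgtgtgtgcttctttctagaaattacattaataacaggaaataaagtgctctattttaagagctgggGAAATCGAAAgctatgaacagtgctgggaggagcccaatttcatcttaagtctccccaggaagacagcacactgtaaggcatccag
Gbp2b, chr3:142594597-142594896 (plus strand): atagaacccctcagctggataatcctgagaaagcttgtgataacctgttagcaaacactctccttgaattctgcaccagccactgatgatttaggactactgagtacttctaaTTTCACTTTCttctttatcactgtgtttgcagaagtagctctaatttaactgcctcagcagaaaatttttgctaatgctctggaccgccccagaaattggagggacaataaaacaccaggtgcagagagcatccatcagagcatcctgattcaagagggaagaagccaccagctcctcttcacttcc
Ifi202b, chr1:173982795-173983094 (minus strand): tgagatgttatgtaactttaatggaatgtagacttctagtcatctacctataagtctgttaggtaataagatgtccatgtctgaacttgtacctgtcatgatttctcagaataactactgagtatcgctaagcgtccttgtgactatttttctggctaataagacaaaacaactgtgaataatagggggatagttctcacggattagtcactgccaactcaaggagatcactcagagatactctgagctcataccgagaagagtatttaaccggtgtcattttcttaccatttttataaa
The first 5 hold a single match each and the Ifi202b window holds no match. A match is a run of letters and not a shown binding site, and the A/J sequence was not analysed here. Genes that were lower (Trim34a, Mndal) and higher (Gbp2b) in A/J both carried one. Over the wider list of interferon-stimulated genes 1 of 29 was higher (Ifi44l, 0.95 ± 0.09) and 4 were lower, among them Trim30d and Trim30a. The median difference of the list was -0.03, against 0.01 over all genes. Without the arrays with squamous transcripts 1 gene was higher and 1 lower.

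Genes with variants described between the strains were then examined. Hc, which encodes complement component C5 and carries a frameshift in A/J, read 9.30, 9.32 and 9.15 in A/J lungs and 11.06, 11.05 and 11.04 in C57BL/6 lungs. The difference was -1.79 ± 0.08 (limma adjusted p = 1.58e-10), from the only bright probe set of the gene. Glo1, glyoxalase 1, which detoxifies methylglyoxal and lies in a segment that A/J carries in duplicate, read 10.25, 10.14 and 10.13 in A/J lungs and 8.42, 8.38 and 8.38 in C57BL/6 lungs. All 4 of its probe sets rose, by 1.15 to 1.88, and the brightest rose 3.44-fold. H2-Ea, the class II Eα chain that the C57BL/6 haplotype does not express, rose by 1.19 ± 0.18 on its brightest probe set and by 2.37 on the next. The brightest H2-Ea probe set was not called without the arrays with squamous transcripts (limma adjusted p = 0.104). Nnt, the mitochondrial transhydrogenase, which is deleted in part in the substrain C57BL/6J, rose by 1.40 ± 0.09 and 1.42 on its 2 bright probe sets. This difference was not seen in the other treatments. The brightest Nnt probe set differed by 0.02 after ovalbumin and by -0.13 after resiquimod and ovalbumin, as described below. Dysf, dysferlin, a membrane repair protein of muscle in which A/J carries an insertion, was higher by 0.74 ± 0.14. Naip5, an intracellular sensor of flagellin that underlies the susceptibility of A/J macrophages to Legionella, fell by 0.70 ± 0.17 at low signals. That call was lost without A/J replicate 1 (limma adjusted p = 0.0646) and without C57BL/6 replicate 3 (0.0719), and in the arrays without squamous transcripts (0.412). Of the remaining genes, Tyr (-0.12 ± 0.11) and Tyrp1 (-0.00 ± 0.08), enzymes of pigment synthesis, were near the weakest signals in both strains. Tpsab1, a mast cell tryptase, differed by 0.20 ± 0.08 and the T cell receptor regulator Cd5 by -0.02 ± 0.17. Ahr, the receptor of dioxin, differed by 0.20 ± 0.09, and none of these 5 was called.

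The MHC genes gave the widest disagreement between probe sets. Of the 7 bright probe sets of H2-D1, a classical class I heavy chain, the brightest read 12.13, 11.97 and 12.13 in A/J lungs and 11.84, 12.00 and 11.96 in C57BL/6 lungs, and the strains overlapped. Another read 11.87, 11.70 and 11.83 in A/J lungs and 3.27, 3.65 and 4.10 in C57BL/6 lungs, a bright signal in A/J against one near the weak range in C57BL/6. The 2 probe sets differed from each other in their strain difference by 7.99 ± 0.20 (limma adjusted p = 2.83e-14), and 2 more probe sets rose by 7.76 and 6.77. The remaining 3 differed by 0.09, 0.16 and 0.44, of which the last was called. H2-K1 and H2-Aa were added after their values were seen. H2-K1, the other classical class I chain, showed the opposite sign: 1 probe set read 9.65, 9.61 and 9.76 in A/J lungs and 12.18, 12.39 and 12.19 in C57BL/6 lungs. The brightest read 11.37, 11.30 and 11.46 in A/J lungs and 11.22, 11.33 and 11.32 in C57BL/6 lungs and was not called. H2-Aa, the class II Aα chain, fell by 3.75 on a probe set that read 3.10, 3.20 and 2.86 in A/J and 6.55, 6.85 and 7.01 in C57BL/6 lungs, while its brightest differed by -0.22 and was not called. The levels of these genes in the 2 strains therefore depended on the probe set read, and the probe sequences were not analysed here. Of the 11 measured class II genes 2 were higher and 2 lower by the brightest probe set, with 0 and 1 without the arrays with squamous transcripts. Of the 11 measured class I heavy chains 1 was higher and 3 lower (0 and 1 without those arrays, where H2-M3, H2-Q10 and H2-Q2 were not called), and the non-classical H2-T24 fell by 1.19 ± 0.10.

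Across the array 4903 genes had at least 2 bright probe sets. In 1118 of them at least 1 probe set was called. All bright probe sets were called in the same direction in 201 genes, 99 higher and 102 lower. In 848 genes some were called and others not, with 458 genes where the called ones were higher and 390 where they were lower. In 69 genes probe sets were called in both directions. The strain difference itself was compared between the brightest and each other probe set in 7960 pairs, of which 881 were called (11.1%). A called pair was found in 479 of the 848 partly called genes (56.5%) and in 48 of the 201 genes that were called throughout (23.9%). It was found in all 69 called in both directions and in 121 of the 3785 genes with none called (3.2%). The classes were formed from the same differences that the pairs compare. Some gap between probe sets, or the lack of one, is therefore given by that choice. Brightness is a mean over both strains, so these classes can include probe sets that are high in only 1 strain. Among the partly called genes, those with a probe set at least 4-fold lower in A/J numbered 18 and those with one at least 4-fold higher numbered 8. Without the arrays with squamous transcripts 363 pairs were called.

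Large gaps between probe sets were not limited to the MHC. Ighm, the heavy chain of immunoglobulin M, had 7 bright probe sets. The brightest read 11.97, 12.45 and 12.14 in A/J lungs and 11.99, 12.69 and 12.18 in C57BL/6 lungs. Another read 10.31, 10.61 and 9.34 in A/J lungs and 3.82, 4.76 and 4.75 in C57BL/6 lungs. The strains overlapped on the first and lay far apart on the other, and 3 further probe sets rose by 3.02, 4.69 and 4.92. The 13 measured genes of the immunoglobulin and plasma cell list included 0 called in the limma fit by their brightest probe set (2 at an unadjusted p under 0.05), with the IgA heavy chain Igha at 1.49 ± 0.45 (limma adjusted p = 0.0522). The other bright Igha probe sets were higher by 1.58 and 1.54 and were called (limma adjusted p = 0.0383 and 0.0473). Zfp945, a zinc finger protein, was called in both directions: it read 7.52, 7.50 and 7.51 in A/J and 5.91, 6.32 and 5.81 in C57BL/6 lungs on the brightest probe set, and 3.41, 3.39 and 3.41 in A/J and 7.36, 7.42 and 7.02 in C57BL/6 lungs on the other. Trim34a behaved alike, with a fall of 3.87 and a rise of 1.23. Rps9, a protein of the small ribosomal subunit, differed by 0.32 ± 0.08 on the brightest probe set. Its other bright probe set read 6.38, 6.19 and 6.07 in A/J lungs and 10.11, 10.46 and 9.88 in C57BL/6 lungs. The call of the brightest was lost without A/J replicate 1 (limma adjusted p = 0.0522) and without C57BL/6 replicate 2 (0.0819). The potassium channel Kcnq5 differed by 0.02 and -4.05, and Ifi209, of the Ifi200 family, by 0.23 and -3.58. Slc15a2, a peptide transporter of the lung epithelium, differed by 1.02 on its brightest probe set, which was not called, and fell by 1.76 and 3.05 on the others. The probe sets of Ang all fell, but by 5.88, 4.11 and 0.61.

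**Figure D3:**
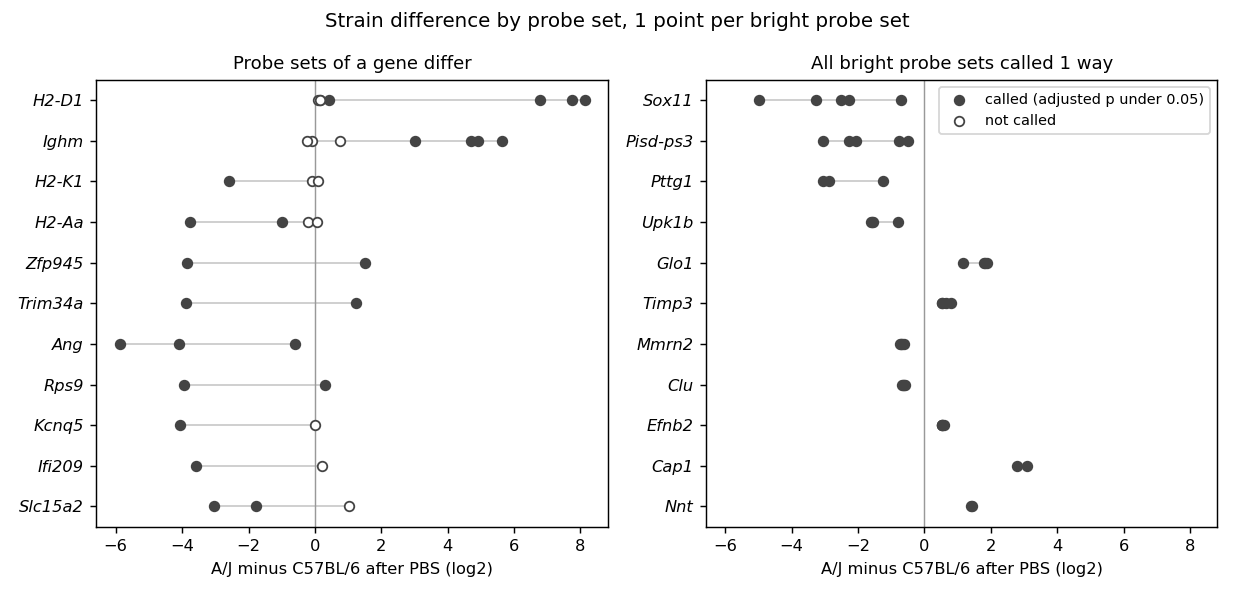
Difference between A/J and C57BL/6 lungs after PBS (log2) for each bright probe set of a gene, 1 point per probe set, filled where called. On the left are genes whose probe sets differ widely, such as H2-D1 with differences from 0.09 to 8.13, and Ang, which was called lower on all. On the right are genes with all bright probe sets called in the same direction, such as Glo1 from 1.15 to 1.88. Their sizes can differ too, as for Sox11 from -4.98 to -0.71.

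Other genes were called on all of several bright probe sets. How far these probe sets overlap in sequence was not analysed. Sox11 fell on all 5 of its bright probe sets, by 0.71 to 4.98, and so did Pisd-ps3, a pseudogene of a phospholipid-synthesis enzyme, by 0.48 to 3.06. Its probe sets may also take up RNA of the parent gene. Upk1b, a membrane protein of urothelium and mesothelium, fell on 4 probe sets by 0.79 to 1.62. The brightest read 6.20, 6.08 and 6.13 in A/J lungs and 7.81, 7.45 and 7.86 in C57BL/6 lungs, with no overlap. Timp3, an inhibitor of matrix metalloproteinases, read 12.09, 12.34 and 12.32 in A/J lungs and 11.43, 11.54 and 11.40 in C57BL/6 lungs, and its 4 probe sets rose by 0.51 to 0.80. Efnb2, an ephrin ligand of arterial endothelium, rose on 4 probe sets by 0.51 to 0.60. Mmrn2, an endothelial matrix protein, fell on 4 probe sets by 0.63 to 0.74, and Clu, the secreted chaperone clusterin, on 4 by 0.59 to 0.68. For Mmrn2, Clu and Efnb2 no pair with the brightest probe set was called. Pairs were called for Sox11, Pisd-ps3, Upk1b and Timp3, whose probe sets shared a direction but not a size throughout. The widest gap from the brightest was 4.27 ± 0.20 for Sox11 (limma adjusted p = 1.05e-10) and -2.31 ± 0.19 for Pisd-ps3 (1.11e-07).

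Of the 18 measured receptor genes of natural killer (NK) cells, 6 were lower in A/J and 0 higher, against 4.56% of all genes called lower. Leaving out the arrays with squamous transcripts, 3 were lower. Klrd1, the CD94 subunit of inhibitory and activating receptors, read 5.03, 4.64 and 4.78 in A/J lungs and 6.15, 6.12 and 5.88 in C57BL/6 lungs. The granule protease Gzma read 6.18, 6.06 and 5.84 in A/J lungs and 7.53, 7.90 and 7.58 in C57BL/6 lungs, and both genes separated the strains. Klrb1b fell by 0.65 ± 0.12 and Klra8, the Ly49H receptor, by 1.00 ± 0.13 at signals near the weak range. The Klrb1b call was lost without the arrays with squamous transcripts. The genes of these receptors differ in number and sequence between mouse strains, so probe binding and RNA amount cannot be told apart here. The mean level of the NK list was 3.29 to 3.35 in A/J and 3.51 to 3.56 in C57BL/6 lungs, and that of the granule list 5.04 to 5.35 in A/J and 5.43 to 5.68 in C57BL/6 lungs. The median level of the NK genes was weak in both strains, at 3.13 in A/J and 3.29 in C57BL/6 lungs. Their median difference was -0.07. Of the T cell list 1 of 15 was lower (0 without those arrays), and of the B cell list 0 of 13 were called in the limma fit (2 at an unadjusted p under 0.05), with the B cell antigen Ms4a1 at 0.46 ± 0.35.

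Of 34 chemokines 2 were higher and 5 lower (1 and 6 without the arrays with squamous transcripts), against 4.46% and 4.56% of all genes. Cxcl14, made by epithelium and stroma, read 5.90, 6.19 and 6.07 in A/J lungs and 7.87, 8.79 and 7.75 in C57BL/6 lungs, and its second probe set fell by 2.45. Ppbp, a platelet chemokine, read 7.73, 7.03 and 7.06 in A/J lungs and 8.83, 8.94 and 9.01 in C57BL/6 lungs. Ccl27a fell by 0.94 ± 0.17, and Ccl22, a ligand that draws type 2 helper T cells, by 0.57 ± 0.10. The type 2 cytokine list, with interleukins and receptors of the allergic response, had 0 of 19 genes higher and 1 lower (0 and 0 without those arrays). Of 8 eosinophil and 14 mast cell genes 0 were called in the limma fit (2 and 3 at an unadjusted p under 0.05). Siglecf, an eosinophil and alveolar macrophage lectin, differed by 0.33 ± 0.20, and the mast cell proteases Cma1 and Cpa3 by 0.78 ± 0.33 and 0.67 ± 0.28. Of 17 Toll-like receptor genes Tlr4, the endotoxin receptor, rose by 0.69 ± 0.11 and Tlr6 by 1.00 ± 0.18, while Ly96, the MD-2 partner of Tlr4, fell by 0.73 ± 0.11. The rise of Tlr4 was that of its brightest probe set, and its other bright ones differed by 0.20 and 0.03, were not called, and fell short of it in the pair test (limma adjusted p = 0.00626 and 0.0107). The brightest probe sets of these 3 genes were also called without the arrays with squamous transcripts. Of 21 complement genes 3 were lower and 0 higher: Hc, C6 (-0.61 ± 0.12), which joins C5 in the membrane attack complex, and Serping1, the C1 inhibitor (-0.33 ± 0.06), which was not called without the arrays with squamous transcripts (0 higher and 2 lower there). Il18r1, a receptor chain for interleukin-18, rose by 0.67 ± 0.10. Of the macrophage list 2 of 22 were higher and 2 lower, but 0 and 1 without the arrays with squamous transcripts, where Mrc1, Car4 and Lyz1 were not called. The Lyz1 call was also lost without any 1 of the 6 PBS arrays (limma adjusted p = 0.0822 to 0.143). Chil3, a chitinase-like protein of alveolar macrophages, read 10.30, 10.07 and 9.75 in A/J lungs and 11.24, 11.41 and 11.30 in C57BL/6 lungs. The neutrophil and epithelial protein Lcn2 fell by 1.10 ± 0.15.

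Among structural genes of the lung, 4 of 11 alveolar type 1 markers were higher and 1 lower in A/J, against 4.46% and 4.56% of all genes, but 0 were called without the arrays with squamous transcripts. Clic5, a chloride channel protein of the flat alveolar cells, was higher by 0.27 ± 0.06 on its brightest probe set and by 0.40 on another. Its remaining bright probe sets differed by 0.14 and 0.32 and were not called. Of the other higher markers, Aqp5, Rtkn2 and Igfbp2 lost their calls in 5, 5 and 4 of the 6 fits without 1 PBS lung. The list mean was 10.9 to 11 in A/J and 10.7 to 10.8 in C57BL/6 lungs. Of 19 endothelial genes 4 were higher and 1 lower (1 and 1 without those arrays). Vwf, the von Willebrand factor of endothelium and platelets, read 10.23, 10.08 and 10.04 in A/J lungs and 10.94, 11.10 and 10.93 in C57BL/6 lungs. The vascular growth factor receptor Flt1 rose by 0.51 ± 0.09 on its brightest probe set, while 2 of its other probe sets differed by 0.13 and 0.15, less than the brightest in the pair test (limma adjusted p = 0.00178 and 0.0292). Of 19 fibroblast and matrix genes 2 were higher and 5 lower, against 4.46% and 4.56% of all genes, with a list median of -0.28. Col1a1, a chain of type I collagen, read 8.11, 8.35 and 8.41 in A/J lungs and 9.04, 9.30 and 8.81 in C57BL/6 lungs. Col3a1, of type III collagen, fell by 0.64 ± 0.15, a call lost without C57BL/6 replicate 2 (limma adjusted p = 0.0605), and its second probe set differed by -0.30 and was not called. Fn1, fibronectin, rose by 0.49 ± 0.11 and Tcf21, a transcription factor of lung fibroblasts, by 0.60 ± 0.12. The list mean was 9.10 to 9.19 in A/J and 9.26 to 9.39 in C57BL/6 lungs, and without the arrays with squamous transcripts 1 gene was higher and 2 lower, with Fn1 no longer called. Of 18 smooth muscle and contraction genes 1 was higher, the actin-binding Synpo2 (0.55 ± 0.11), and 1 lower (1 and 0 without those arrays). The rise of Synpo2 was seen on 1 of 4 bright probe sets: the others differed by -0.81, -0.34 and -0.26, none called, and all 3 pairs were called (limma adjusted p = 0.0035 to 0.0192).

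Of 23 mucus and goblet cell genes 4 were higher and 2 lower (3 and 2 without the arrays with squamous transcripts), against 4.46% and 4.56% of all genes. Itln1, the intestinal-type lectin intelectin, read 5.68, 6.01 and 5.49 in A/J lungs and 3.79, 3.80 and 3.83 in C57BL/6 lungs. Pigr, which carries IgA and IgM into secretions, rose by 1.02 ± 0.14. The membrane mucin Muc4 read 4.40, 4.09 and 4.23 in A/J lungs and 5.30, 5.87 and 5.92 in C57BL/6 lungs, and Bpifa1, a secreted protein of the upper airway, fell by 1.01 ± 0.19. The directions within the list were thus mixed. Of 15 club cell genes 1 was higher, the xenobiotic enzyme Cyp2b10 (0.62 ± 0.11, with its 3 probe sets at 0.60 to 0.76). Of 15 alveolar type 2 genes 1 was higher, the surfactant lipid transporter Abca3 (0.50 ± 0.07), and 1 lower (1 and 0 without those arrays). Of 24 glutathione S-transferase genes 0 were higher and 1 was lower, Gsto1 (-1.04 ± 0.10; 2 lower without those arrays). The red cell list had 2 of 9 genes higher, against 4.46% of all genes, and 1 without those arrays. The second, the anion exchanger Slc4a1, was higher by 1.13, and its call was lost without A/J replicates 1 or 2 or C57BL/6 replicates 1 or 3 (limma adjusted p = 0.062 to 0.0811) and without the arrays with squamous transcripts (0.673). Hbb-b2, a beta globin, read 8.27, 7.51 and 7.80 in A/J lungs and 6.47, 6.39 and 6.39 in C57BL/6 lungs. A dim probe set of the gene went the other way, with 3.67, 3.64 and 3.54 in A/J lungs and 4.11, 4.11 and 4.31 in C57BL/6 lungs (difference -0.57 ± 0.13). Globin genes are near-identical copies whose haplotypes differ between strains, so this difference may not be that of Hbb-b2 alone. Of the 27 cell cycle genes 0 were higher and 2 lower (0 and 1 without those arrays), among them the spindle checkpoint kinase Bub1b (-0.74 ± 0.14), which was not called without the arrays with squamous transcripts.

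The same strains were compared in the mice of the other treatments, which share no array with the PBS comparison but share its estimate of the spread. After ovalbumin 3984 probe sets were called between the strains (8.85%; 9.27% of genes), and after resiquimod and ovalbumin 6320 (14%; 16.5% of genes). Among the 811 higher in A/J after PBS, 465 were also called higher after ovalbumin (57.3%) and 485 after resiquimod and ovalbumin (59.8%). They made up 59.6% and 35.3% of the genes called higher there, which were 4.29% and 7.54% of all genes. Of the 829 genes lower after PBS, 575 (69.4%) and 591 (71.3%) were called lower in these treatments, which is 63.5% and 36.4% of the genes called lower there, themselves 4.98% and 8.92% of all genes. In neither treatment were 208 of the higher and 131 of the lower genes called. Of the 41 genes at least 4-fold apart after PBS, 40 were called in the same direction in both other treatments, among them Rpgrip1 (-6.02 after ovalbumin and -5.91 after resiquimod and ovalbumin), Ang (-5.82 and -5.21) and Gbp2b (4.79 and 4.77). Glo1 differed by 1.99 and 1.82 there and Hc by -1.80 and -1.62.

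**Figure D4:**
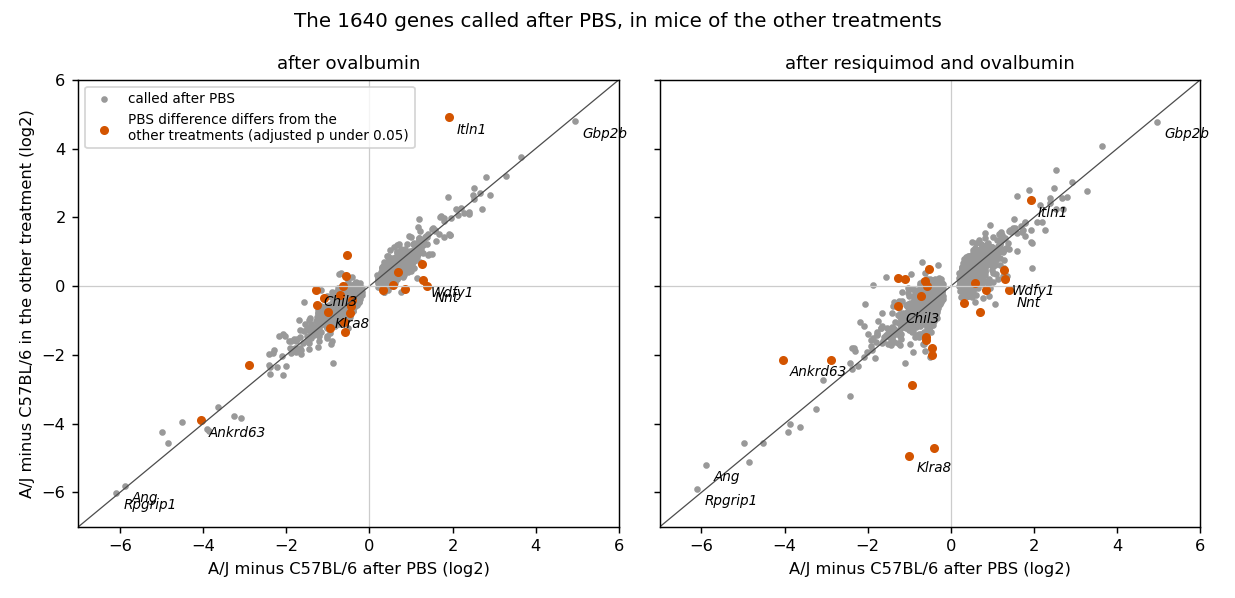
Strain difference (A/J minus C57BL/6, log2) after PBS on the horizontal axis against that after ovalbumin (left) and after resiquimod and ovalbumin (right), for the 1640 genes called after PBS, 1 point per gene. The line marks equal differences, and orange points passed the test of the PBS difference against the mean of the other treatments. Gbp2b, Ang and Rpgrip1 lie close to the line, and Nnt, Wdfy1, Itln1 and Klra8 depart from it in at least 1 panel.

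The difference between the PBS strain difference and the mean of the other 2 was itself tested, and 65 of 45037 probe sets were called (0.144%). Without the arrays with squamous transcripts 8 were called, and without any single PBS array between 37 and 43. For Nnt the departure lay in the C57BL/6 PBS lungs, which read 7.04, 7.27 and 6.90, below the 6 C57BL/6 lungs of the other treatments, at 8.27 to 8.45. A/J lungs read 8.52, 8.39 and 8.48 after PBS and 8.05 to 8.51 in the other treatments. The strain difference of Nnt was 1.40 after PBS, 0.02 after ovalbumin and -0.13 after resiquimod and ovalbumin, and the PBS difference exceeded the mean of the others by 1.45 (limma adjusted p = 6.25e-06). Its second bright probe set gave 1.42, -0.06 and -0.07.

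Wdfy1, an endosomal adaptor of Toll-like receptor signalling, showed the same form and was picked after its values were seen. One of its probe sets read 6.42, 6.38 and 6.41 in A/J PBS lungs and 4.49, 4.11 and 4.18 in C57BL/6 PBS lungs, while the 6 C57BL/6 lungs of the other treatments read 6.18 to 6.58. A second read 6.91, 6.50 and 6.81 in A/J and 5.07, 4.92 and 4.60 in C57BL/6 PBS lungs, and the brightest read 7.55, 7.66 and 7.61 in A/J and 6.33, 6.12 and 6.47 in C57BL/6 PBS lungs. On all 3 the C57BL/6 PBS lungs lay below every other lung of the series, and all 3 passed the test of the PBS difference against the others, by 2.14, 1.78 and 1.10. Its other probe sets differed between the strains by 0.28 and -0.10 after PBS and were not called. Probe sets on which the C57BL/6 PBS lungs stood at least 0.5 apart from the other 15 arrays were therefore counted, also after the values were seen. There were 8 below, namely 3 of Wdfy1, 2 of Nnt, 2 of Ms4a6d and 1 of Gatm, and 4 above, each of which is annotated to several genes and is not named here. Counted in the same way, A/J PBS lungs gave 3 below and 0 above. After ovalbumin the counts were 0 below and 18 above for A/J lungs, and 0 and 4 for C57BL/6 lungs. After resiquimod and ovalbumin they were 19 below and 16 above for A/J lungs, and 8 and 109 for C57BL/6 lungs. The 6 C57BL/6 lungs of the other treatments were alike for Nnt and Wdfy1, and whether the C57BL/6 mice came from a single source was not tested.

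**Figure D5:**
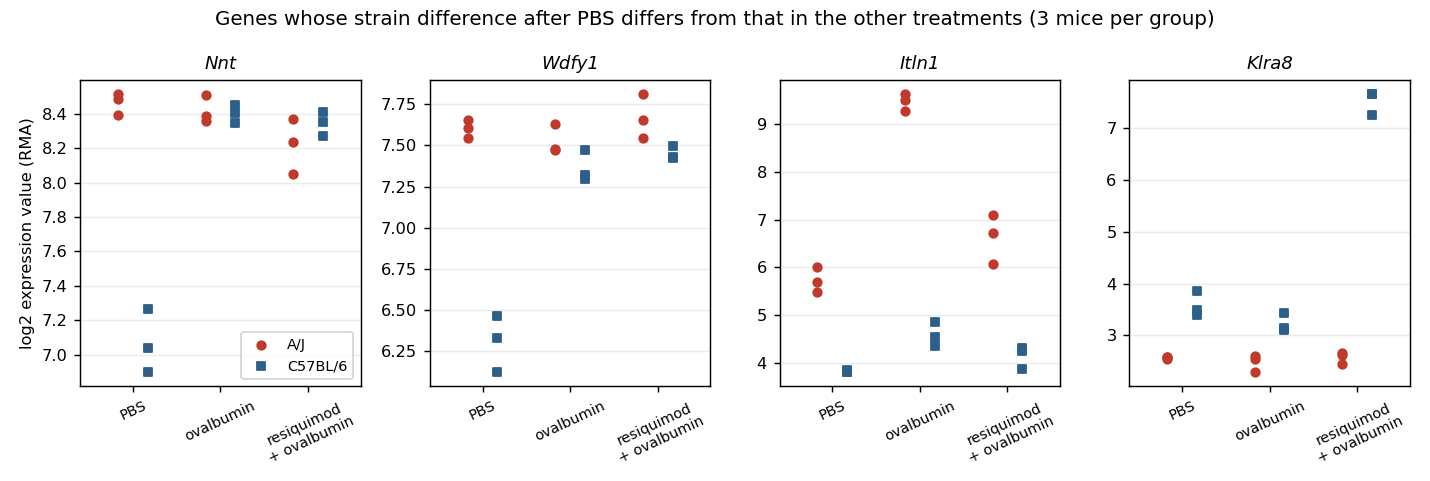
Log2 expression values of Nnt, Wdfy1, Itln1 and Klra8 in all 18 mice by treatment, with red circles for A/J and blue squares for C57BL/6, and each panel on its own scale. Nnt and Wdfy1 are low only in the 3 C57BL/6 PBS lungs, Itln1 is highest in A/J after ovalbumin, and Klra8 is highest in C57BL/6 after resiquimod and ovalbumin.

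For other genes the levels after the challenges differed. Itln1 differed by 1.92 after PBS, 4.90 after ovalbumin and 2.49 after resiquimod and ovalbumin, with A/J lungs at 9.65, 9.29 and 9.52 after ovalbumin and C57BL/6 lungs at 4.55, 4.36 and 4.84. Cxcl3, a neutrophil chemokine, lay near the weakest signals in both strains after PBS (difference -0.06 ± 0.45) and was 2.77 higher in A/J after ovalbumin and 4.88 higher after resiquimod and ovalbumin. Klra8 and Klra7, NK receptors of the Ly49 family, lay 4.95 and 4.72 lower in A/J after resiquimod and ovalbumin, against 1.00 and 0.41 lower after PBS. The Klra7 call after PBS was lost without A/J replicate 1 (limma adjusted p = 0.0514), A/J replicate 2 (0.0652) or C57BL/6 replicate 2 (0.0613), and without the arrays with squamous transcripts. Chil3 and Lcn2, differed by -1.28 and -1.10 after PBS and by -0.10 and -0.35 after ovalbumin. Wfdc17, a secreted protein of myeloid cells, was lower in A/J by 0.54 after PBS, a call lost without the arrays with squamous transcripts, and 0.89 higher in A/J after ovalbumin. Ankrd63 differed by -4.05 after PBS, -3.91 after ovalbumin and -2.15 after resiquimod and ovalbumin, and Pttg1 by -2.89, -2.30 and -2.15, so both stayed lower in A/J in every treatment. The PBS difference departed from the mean of the others by -1.02 for Ankrd63 and -0.66 for Pttg1.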

How the data were processed

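RNA of whole mouse lungs was labelled and hybridised to 18 Affymetrix arrays, 3 per strain and treatment. The deposited values are log2 expression values per probe set, made by the authors with RMA in the affy package, per the submitters' processing notes; no version is given in the sources used here. RMA adjusts background, makes the arrays' distributions equal and summarises the probes of a set, so an amount that shifts in all genes would not be seen. The arrays held no identical pair (0 of all pairs), and array medians were 4.77 to 4.80. Arrays give no read depth, so the number of arrays limits the precision.

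After 64 control probe sets were left out, limma 3.58.1 in R 4.3.3 fitted 6 group means to the 18 arrays with eBayes (12 residual degrees of freedom), and p-values were adjusted over 45037 probe sets by the Benjamini-Hochberg method. The strain difference after PBS, after each other treatment, the PBS difference against the mean of the others, and the difference between the brightest and each other bright probe set of a gene were tested in the same way, with n = 3 arrays per group. The scripts were tested on simulated data. Tables were made with Python 3.11.15 and pandas 2.3.3.

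Genes were named from GEO's platform annotation. Of the probe sets, 34945 name a single gene, 932 several and 9160 none, and only the first kind was named. Of the single-gene probe sets 34741 matched a RefSeq gene, which also gave the gene order. Genes named are, among called genes whose groups do not overlap, the top 15 in each direction, up to 4 called members of each of 45 gene lists (or up to 2 members as values where none was called), all listed strain variants, the 10 called probe set pairs with the largest differences, the 8 genes with the most bright probe sets called in 1 direction, and the 8 genes called with the largest PBS difference against the other treatments. Clone names and predicted genes were passed over. The text gives a part of these, and the members of runs of neighbouring genes, Wdfy1, H2-K1, H2-Aa, Ms4a6d and Gatm were added after their values were seen. The comparison and the lists were chosen with earlier results of these data known.

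Arrays with squamous transcripts are those whose mean over the squamous list lay more than 1 log2 unit above the lowest array. Alternatives were the replicate number as a block, another prior, array centring, those arrays or each PBS array left out, a filter on dim probe sets, the 6 PBS arrays alone, a mean over the probe sets of a gene and a fold threshold. Probe sequences and the A/J genome were not analysed here.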

Additional observations from a re-analysis of the deposited data

Results flagged for a closer look

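Among the named genes, 13 differed between treatments in their strain difference at an adjusted p under 0.05. The test was limma's, of the PBS difference minus the mean of the other treatments. Some of these genes were named because they passed this test, so their number is partly set by that choice. Over all probe sets 65 of 45037 passed it (0.144%). The tested difference was positive, with the PBS difference the higher on the signed scale, for Klra7 (2.16), Klra8 (1.84), Nnt (1.45) and Disp2 (1.11). It was negative for Cxcl3 (-3.88), Itln1 (-1.78), Lrmda (-1.49), Wfdc17 (-1.23), Lcn2 (-1.03), Ankrd63 (-1.02), Chil3 (-0.93), Ccl22 (-0.72) and Pttg1 (-0.66). Lrmda and Disp2 were not described above. Lrmda, a melanocyte differentiation protein, differed by 0.08 after PBS, 1.55 after ovalbumin and 1.60 after resiquimod and ovalbumin. Disp2, a membrane protein related to the hedgehog transporter dispatched, differed by -0.94 after PBS, -1.22 after ovalbumin and -2.86 after resiquimod and ovalbumin. With 3 arrays per group no array was tested as an outlier.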

How the results depend on the processing

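Against 3845 probe sets called after PBS, the count was 1442 (629 higher, 813 lower) without the arrays with squamous transcripts, a fit with fewer arrays. In the same setting the counts were 1347 after ovalbumin, 4029 after resiquimod and ovalbumin, 8 for the PBS difference against the other treatments, 363 probe set pairs and 565 genes. With the 2-fold threshold 624 probe sets passed. The number of called pairs was 1323 with no filter on dim probe sets and 354 with a filter at the 75th percentile, settings that change how many pairs are tested. Leaving out 1 PBS array gave 2941 to 3223 probe sets, 1213 to 1350 genes, 708 to 753 pairs and 37 to 43 probe sets that differed between treatments.

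The remaining alternatives kept the PBS counts within 1.5 times: 4091 with another prior, 3799 with centred arrays, 3549 among the brighter probe sets and 3591 with the PBS arrays alone. The mean over the probe sets of a gene gave 1811 genes. Samples with the same replicate number did not deviate together in every pair (r = 0.28, 0.39 and -0.20 between the strains after PBS), so the numbers were not taken as pairs. With the replicate block 3861 probe sets were called after PBS, 3958 after ovalbumin, 6283 after resiquimod and ovalbumin, 57 against the other treatments, 875 pairs and 1633 genes.

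Of 124 called named genes, 89 kept the call without any single PBS array and 77 without the arrays with squamous transcripts, and none changed direction in 1474 fits. Many of these genes were named for large called differences, so these counts do not stand for all called genes. Signs turned for uncalled genes near 0 or of muscle. Without the arrays with squamous transcripts Tyrp1 was 0.030, Cd5 0.023 and Myh1 0.64. Over the fits without 1 PBS array, Tyrp1 spanned -0.028 to 0.034, Cd5 -0.096 to 0.025, Myh1 -2.82 to 0.90, Myl1 -1.83 to 0.31, Ighm -0.25 to 0.10, Kcnq5 -0.18 to 0.18 and Cxcl3 -0.13 to 0.021. The cause was not tested for these. Signals below the 25th percentile limit the fold of genes such as Trim12a and Nxpe4, whose A/J level may lie below what the array can read.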
